A study of Mus musculus with 32 samples.

Results

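The genes followed, 9 in number, carry adrenergic and muscarinic signals in the heart: the beta receptors Adrb1 and Adrb3, the alpha-1 receptors Adra1a and Adra1b, the receptor kinases Adrbk1 (now named Grk2) and Grk5, the M2 muscarinic receptor Chrm2, and the adenylyl cyclases Adcy5 and Adcy6. Their probes were found by the gene name that the array gives them, without regard to any measured value. The 9 genes themselves were chosen with earlier results of these data known. The 9 genes had 14 probes, and all 9 were among the 27535 genes tested. Heart RNA came from 32 individual C57BL/6 mice, each hybridised to its own 1-colour array. Stressed mice were held in a mesh box in the cage of an aggressor mouse for 6 hours a day and were attacked there, a social defeat procedure used as a model of posttraumatic stress disorder, while controls stayed in mesh boxes with no aggressor. T gives the days of exposure and R the days of rest that followed. The groups were T5R1 stressed and T5R1 control (5 days of exposure, 1 day of rest), T5R10 stressed and T5R10 control (5 and 10 days), T10R1 stressed and T10R1 control (10 and 1 days), and T10R42 stressed and T10R42 control (10 and 42 days), with 4 mice in each. No genetic change or drug is given for any group, and the sources used here do not give age or sex.

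Noradrenaline from sympathetic nerves and adrenaline from the adrenal gland act on beta receptors, which through the G protein Gs switch on adenylyl cyclase. The cAMP it makes activates protein kinase A, and the heart beats faster and harder. Adenylyl cyclases 5 and 6 are the main forms in heart muscle cells. Alpha-1 receptors work through Gq and phospholipase C. Acetylcholine from the vagus nerve acts on the M2 receptor, which through Gi restrains adenylyl cyclase and through free G protein beta-gamma subunits opens a potassium channel built from the products of Kcnj3 and Kcnj5, most of all in the atria and the pacemaker. Receptor kinases mark receptors in use, so that arrestins bind them and signalling fades.

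The probes are shown because 4 of the 9 genes had several, and the probes of a gene did not always read alike. Bases run 5′ to 3′ as printed on the array, all in lower case since no stretch was singled out. The Chrm2 probe and the dimmer Adrb3 probe are given whole (60 bases) and the others by their first 30 bases.
Chrm2: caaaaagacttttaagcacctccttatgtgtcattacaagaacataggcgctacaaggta
Adrb3, dimmer probe: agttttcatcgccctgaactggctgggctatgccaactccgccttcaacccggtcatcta
Adrb3, brighter probe: gggttcataggaagaagtcaaactattgga
Adcy6: aggcagaggagaggaagatcagctggtcca
Adra1a: aatatagagtcatcgatagctcaaaagaca
Adcy5, probe at base 4465: atgtttccccttggcagaagactctgctag
Adcy5, probe at base 4822 (the brightest): gcaagaggacaccaggcaaggagcagtggc
Adcy5, probe at base 4975: ggaggtgggaaccccaacttgtctttttgt
On mm9, the build of the array design, the Chrm2 probe lies on chromosome 6 from 36474550 to 36474609 (plus strand) and starts at base 1380 of its transcript. The Adra1a probe lies on chromosome 14 from 67352013 to 67352072 (plus strand), at base 3983. The Adcy6 probe starts at base 5617 of its transcript on chromosome 15 (minus strand), where the array design gives positions 98420404 to 98420418 alone. The Adcy5 probes start at bases 4465, 4822 and 4975 of 1 transcript, on chromosome 16 (plus strand) from 35304041, 35304398 and 35304551. The Adrb3 probes start at bases 1779 (dimmer) and 2715 (brighter), on chromosome 8 (minus strand) from 28337864 and 28336268.

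Signals are given as a percentage of the 75th percentile of the probe signals on the same array, which ranged from 237.2 to 498.9 units. They rank hearts for 1 probe and do not rank genes. A change is the log2 signal of stressed hearts minus that of control hearts, followed by ± its standard error (SE, 4 mice per arm), and p values are from limma, two-sided and adjusted over all 27535 genes. A gene was called below an adjusted p of 0.05, and the number of arrays limits the precision. Each condition had a slide of its own with 8 arrays, so a level can be compared between stressed and control hearts of a condition, whereas condition and slide cannot be told apart. Array column and stress cannot be told apart either, since controls lay in columns 1 and 2 of every slide and stressed hearts in columns 3 and 4. All T10R1 arrays were scanned on a different day from the other arrays. Stress effects compared between T10R1 and another condition therefore also cross scan days. In bulk heart RNA, fewer cells of a type and less RNA per cell cannot be told apart. All 10 ventricular and all 10 atrial muscle markers were measured in these hearts, and 3 arrays (T5R10 stressed replicates 1 and 2, T5R10 control replicate 4) had been marked for evaluation by the scanner software.

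**Figure D1:**
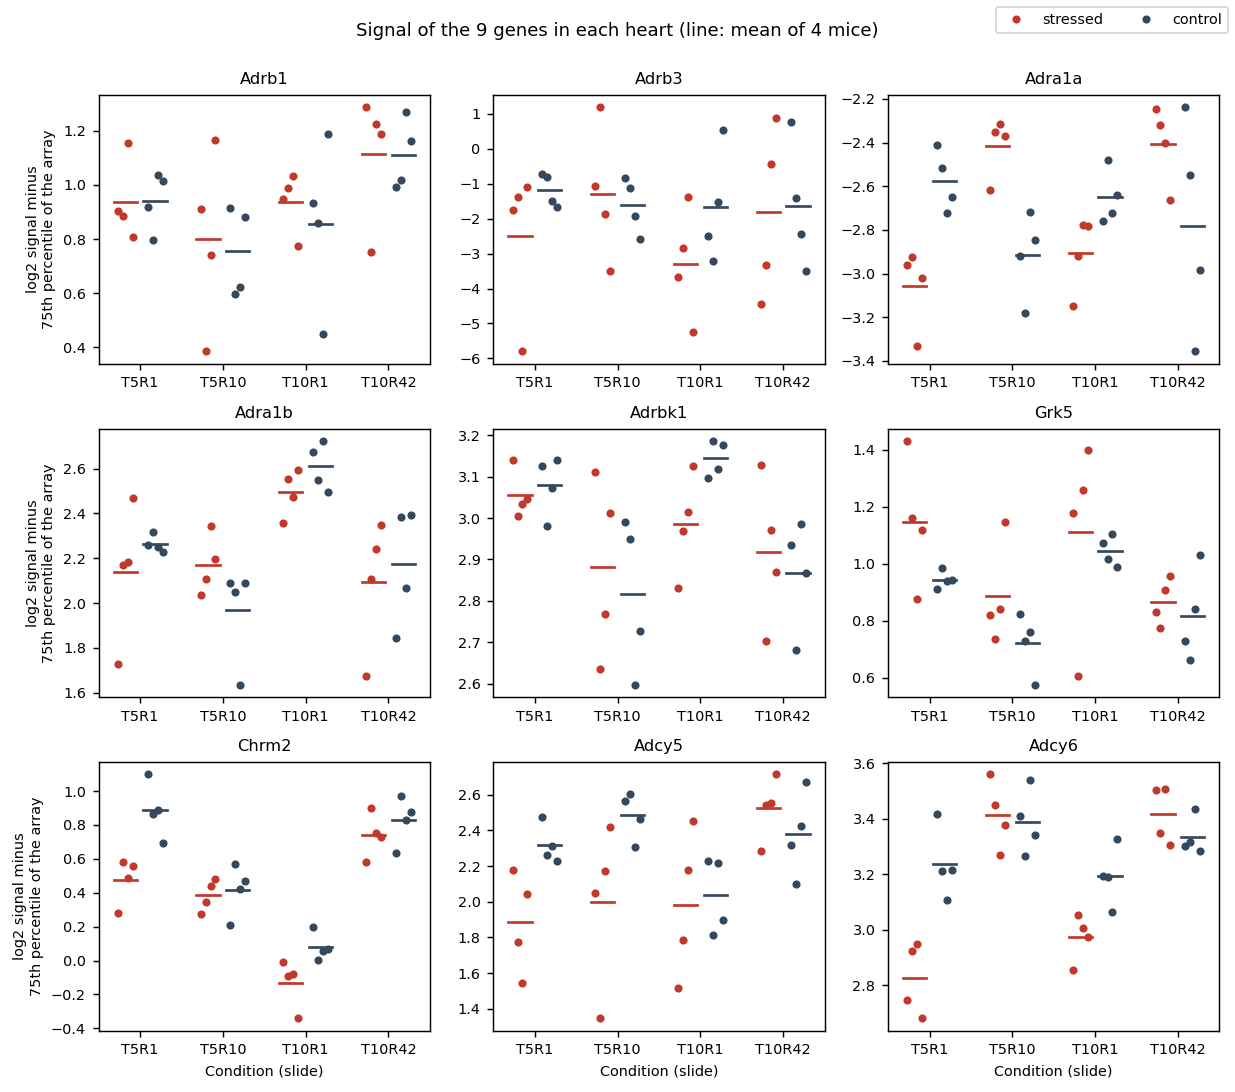
Log2 signal of each of the 9 genes relative to the 75th percentile of its array (y axis, brightest probe) in stressed (red) and control (blue) hearts of the 4 conditions, each a slide (x axis). Points are mice and lines are means of 4. The red points lie below all blue points for Adra1a, Chrm2, Adcy5 and Adcy6 in T5R1, and Adrb3 spans from 1.8% to 229% of the 75th percentile.

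In T5R1, 3 of the 9 genes fell in stressed hearts and none rose, with a median change of -0.41. Measured lower were 8 of 9. Among these were Adrb1 (rounding to 0.00) and Adrbk1 (-0.02), which changed by 0.02 and 0.03 under quantile normalisation. The share of all genes measured lower was not counted in any condition. Over all genes 13.7% were called in T5R1, and the median change was -0.12. Under quantile normalisation that median was -0.03, and the split of all calls turned from 1458 higher and 2320 lower to 1918 higher of 3021. The genes that fell were Adcy6, Chrm2 and Adra1a, by 0.29, 0.29 and 0.37 more than the median gene. At an unadjusted p below 0.05 there were 4 of 9, beside 8126 of all 27535 genes. The share of all genes whose arms did not overlap was not counted. Arms said here not to overlap therefore only describe the values of a gene.

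Adcy6, which makes cAMP below beta receptors, had 671, 758, 771 and 641% of the 75th percentile in T5R1 stressed hearts, against 1070, 927, 861 and 929% in T5R1 control hearts. Every stressed heart was below every control heart. The change was -0.41 ± 0.08, or 1.33-fold lower (adjusted p = 0.00161), and Adcy6 was called in all 18 alternatives tried for this condition. In T10R1 the stressed hearts, at 723, 830, 802 and 786%, again lay below the control hearts, at 915, 913, 836 and 1000%, but the change of -0.22 ± 0.08 was not called (adjusted p = 0.233). After long rest the arms overlapped. Stressed hearts had 1180, 1090, 965 and 1040% in T5R10, against 1060, 960, 1160 and 1010% in T5R10 control hearts (change 0.03 ± 0.08, adjusted p = 0.912). T10R42 stressed hearts had 1130, 1020, 1140 and 988%, against 987, 996, 1080 and 973% in T10R42 control hearts (change 0.08 ± 0.08, adjusted p = 0.644).

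Chrm2, the receptor through which the vagus slows the heart, had 121, 150, 140 and 147% in T5R1 stressed hearts, against 214, 182, 185 and 162% in T5R1 control hearts. The arms did not overlap, and the change was -0.41 ± 0.10 (adjusted p = 0.00658). It was called in 17 of 18 alternatives and missed with the condition fitted alone (adjusted p = 0.0566). T10R1 stressed hearts had 99.4, 94.0, 94.6 and 79.0%, each below the T10R1 control hearts at 115, 100, 104 and 105%, with a change of -0.21 ± 0.10 that was not called (adjusted p = 0.357). In T5R10 the stressed hearts had 121, 127, 136 and 140%, against 116, 148, 134 and 138% in control hearts (change -0.03 ± 0.10, adjusted p = 0.903). T10R42 stressed hearts had 150, 187, 169 and 166%, against 155, 196, 178 and 183% in control hearts (change -0.08 ± 0.10, adjusted p = 0.688). These last conditions showed overlapping arms.

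Adra1a, a receptor for noradrenaline that signals through Gq, was well above background on all 32 arrays. T5R1 stressed hearts had 12.8, 13.2, 9.95 and 12.3%, against 18.8, 17.5, 15.1 and 15.9% in T5R1 control hearts. The arms did not overlap, and the change was -0.49 ± 0.16 (adjusted p = 0.0447). The call held in 5 of 18 alternatives. It was lost when any 1 of the 8 arrays was left out (adjusted p from 0.0501 to 0.131, change -0.53 to -0.39), under quantile normalisation (change -0.33, adjusted p = 0.246), with the authors' values (change -0.20, adjusted p = 0.24), with slide row as a block, with array weights and with no filter on dim probes. T10R1 stressed hearts, at 11.3, 13.2, 14.6 and 14.5%, also lay below T10R1 control hearts, at 14.8, 17.9, 15.2 and 16.0% (change -0.26 ± 0.16, adjusted p = 0.528). In T5R10 the stressed hearts had 16.3, 19.6, 20.1 and 19.3%, all above the T5R10 control hearts at 13.2, 11, 15.2 and 13.9%. The change of 0.50 ± 0.16 was not called (adjusted p = 0.167). It was 0.22 under normexp background correction, 0.36 with the authors' values and 0.68 under quantile normalisation. T10R42 stressed hearts had 21.1, 20.1, 18.9 and 15.8%, against 21.2, 17.1, 9.77 and 12.6% in control hearts, which overlapped (change 0.37 ± 0.16, adjusted p = 0.205). That change was 0.11 under normexp, 0.30 with the authors' values and 0.54 under quantile normalisation. It was 0.18 without control replicate 3 and 0.56 without control replicate 1.

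**Figure D2:**
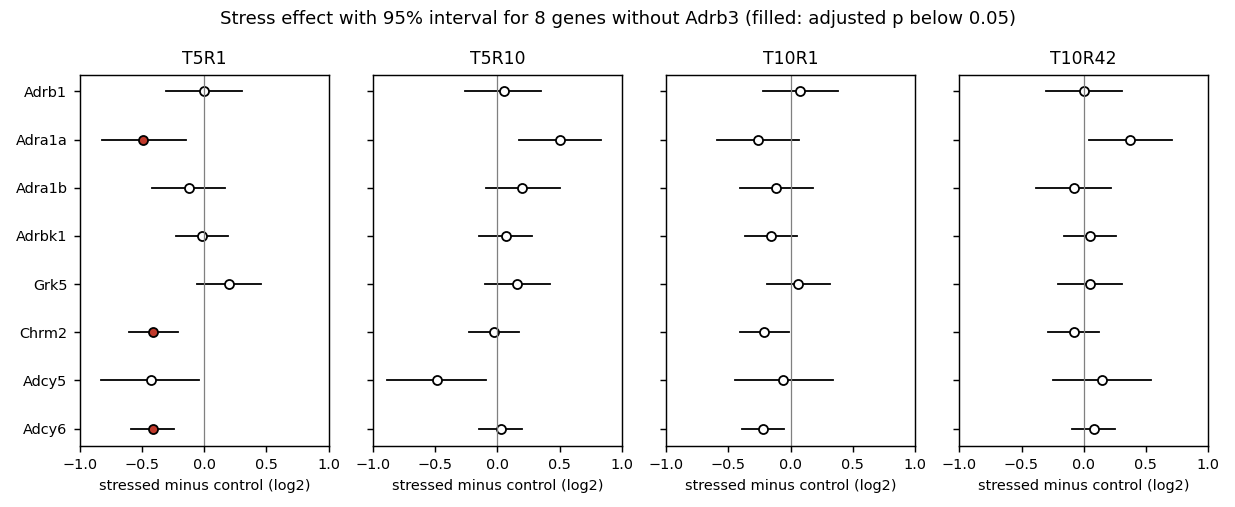
Stressed minus control difference (x axis, log2) with its 95% interval in each condition for 8 of the 9 genes (rows). Adrb3 is left out because its T5R1 interval alone runs from -3.74 to 1.10, and filled points mark an adjusted p below 0.05. Filled points are Adra1a, Chrm2 and Adcy6 in T5R1, and no other point is filled.

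In the other 3 conditions limma called none of the 9 genes. The share of all genes called was 0.0763% in T5R10, 1.13% in T10R1 and 0.897% in T10R42. At an unadjusted p below 0.05 there were 2 of 9 in T5R10 (Adra1a and Adcy5), 2 of 9 in T10R1 (Chrm2 and Adcy6) and 1 of 9 in T10R42 (Adra1a). Of all 27535 genes, 3843 in T5R10, 3613 in T10R1 and 5166 in T10R42 passed the same unadjusted limit. In T10R1 7 of 9 genes were measured lower, with a median of -0.16, against a median of 0.00 over all genes. The mean of the 4 stress effects was called for Chrm2 (-0.18 ± 0.05, adjusted p = 0.0156) and Adcy6 (-0.13 ± 0.04, adjusted p = 0.0391), where 12.6% of all genes were called. Chrm2 lost that call without the 3 arrays marked for evaluation (adjusted p = 0.0505). Adcy6 kept it in 17 of 32 repeats that left out 1 array (change -0.14 to -0.12, adjusted p from 0.0258 to 0.0642).

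Whether the stress effect differed between conditions was tested directly. The effect in T5R10 minus that in T5R1 was called for Adra1a (0.99 ± 0.23, adjusted p = 0.0188) and for Adcy6 (0.44 ± 0.12, adjusted p = 0.045), where 2.49% of all genes were called and the median gene shifted by 0.08. For Adra1a the call was lost only without T5R10 control replicate 2 (0.90, adjusted p = 0.0536), while the size was 0.54 under normexp background correction and 0.57 with the authors' values. Over all alternatives the Adra1a difference ran from 0.54 to 1.08. For Adcy6 the call held in 10 of 26 alternatives. Chrm2 differed by 0.38 ± 0.14 and was not called (adjusted p = 0.147). T10R42 minus T10R1 gave no call among the 9 (4.12% of all genes), with Adra1a at 0.63 ± 0.23 (adjusted p = 0.0998) and Adcy6 at 0.30 ± 0.12 (adjusted p = 0.128). There 2 of 9 had an unadjusted p below 0.05, as did 6308 of all 27535 genes. Without T10R42 control replicate 1 the Adra1a difference was 0.81 (adjusted p = 0.0418). Longer exposure at 1 day of rest, T10R1 minus T5R1, also gave none (0.592% of all genes). For it 0 of 9 had an unadjusted p below 0.05, beside 4907 of all 27535 genes. These comparisons share groups and are not independent of the stress effects they are made of.

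Adrb1, Adra1b and the receptor kinases Adrbk1 and Grk5 were not called in any condition. Adrb1, the main beta receptor of heart muscle, ranged from 131 to 244% over the 32 hearts and changed by 0.00 in T5R1 (95% interval -0.31 to 0.30), 0.05 in T5R10 (-0.26 to 0.35), 0.08 in T10R1 (-0.22 to 0.38) and 0.00 in T10R42 (-0.30 to 0.31). The arms overlapped in every condition. Adrbk1, the kinase that phosphorylates active beta receptors, ranged from 605 to 910%. Its changes ran from -0.16 ± 0.10 in T10R1, where 3 of 4 stressed hearts were below every control heart, to 0.07 ± 0.10 in T5R10. Grk5, a second receptor kinase of heart muscle, ranged from 149 to 270% and was measured higher in all 4 conditions, by 0.20 ± 0.13 in T5R1, 0.16 ± 0.13 in T5R10, 0.06 ± 0.13 in T10R1 and 0.05 ± 0.13 in T10R42. The mean of the 4 was 0.12 ± 0.06 (adjusted p = 0.203). Without T10R1 stressed replicate 2 that mean was 0.16 and was called (adjusted p = 0.0401). Adra1b, the other alpha-1 receptor, ranged from 311 to 661%, with changes from -0.12 ± 0.15 in T5R1 and T10R1 to 0.20 ± 0.15 in T5R10 (adjusted p = 0.543). The 95% intervals leave room in T5R1 for a fall in Adra1b of up to 0.42 and a rise in Grk5 of up to 0.46.

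Adcy5, the other main cyclase of heart muscle, gave results that depended on the probe. Its brightest probe had 453, 342, 292 and 413% in T5R1 stressed hearts, all below the 556, 479, 496 and 468% of T5R1 control hearts, with a change of -0.43 ± 0.19 that was not called (adjusted p = 0.133). In T5R10 the same probe had 413, 254, 450 and 535% in stressed hearts, against 593, 608, 495 and 553% in control hearts (change -0.49 ± 0.19, adjusted p = 0.248). T10R1 gave 286, 345, 452 and 548% in T10R1 stressed hearts against 469, 352, 464 and 372% in control hearts, which overlapped (change -0.06 ± 0.19). T10R42 stressed hearts had 488, 584, 587 and 657%, against 499, 428, 537 and 636% in control hearts, which also overlapped (change 0.15 ± 0.19). The probe at base 4465, which ranged from 346 to 476%, changed by 0.06 ± 0.08 in T5R1 and 0.03 ± 0.08 in T5R10. The probe at base 4975, from 43.2 to 65.9%, changed by -0.13 ± 0.10 and 0.14 ± 0.10. With the probes averaged, Adcy5 changed by -0.17 in T5R1 and -0.10 in T5R10. T5R10 also rested on few arrays, at -0.27 without stressed replicate 2 and -0.20 without the 3 marked arrays.

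The second probes of Adra1b and Adrb1 also read differently from the brightest. The dimmer Adra1b probe had 81.5, 117, 127 and 142% in T5R1 stressed hearts, against 148, 194, 140 and 144% in T5R1 control hearts (change -0.44 ± 0.17, adjusted p = 0.0991 over all probes). The dimmer Adrb1 probe had 12.0, 15.0, 13.7 and 11.8%, against 17.3, 16.4, 14.4 and 17.0% (change -0.31 ± 0.18, adjusted p = 0.257). Neither was called, and the arms overlapped for both. In T10R42 the dimmer Adra1b probe changed by -0.40 ± 0.17 (adjusted p = 0.229) and the dimmer Adrb1 probe by -0.35 ± 0.18 (adjusted p = 0.302), where the brightest probes gave -0.08 and 0.00. In T10R1 the dimmer probes changed by 0.17 ± 0.17 (Adra1b) and 0.15 ± 0.18 (Adrb1), and in T5R10 by -0.06 ± 0.17 and 0.07 ± 0.18.

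**Figure D3:**
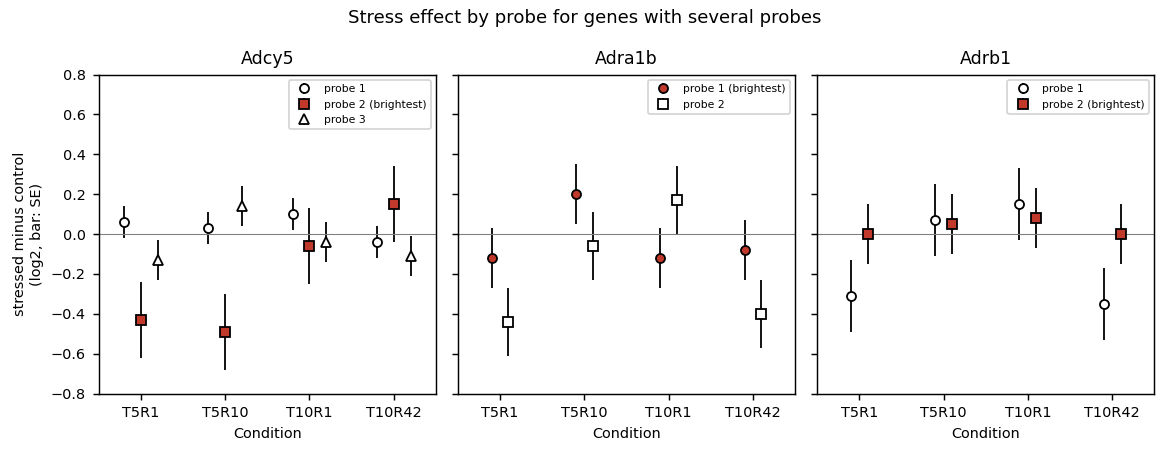
Stressed minus control difference (y axis, log2, bars show SE) by condition (x axis) for each probe of Adcy5, Adra1b and Adrb1, numbered by their place in the transcript. Filled symbols mark the brightest probe, which stood for the gene. In T5R1 and T5R10 the filled Adcy5 symbol lies at -0.43 and -0.49 while its neighbours lie between -0.13 and 0.14.

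Adrb3, the beta receptor best known from fat cells, varied far more between mice than the other 8 genes. Its brighter probe ranged from 1.8 to 229%, was above background on 30 of 32 arrays, and had a within-group SD of 1.74 log2 units, exceeded by only 11 of the 27535 genes. The other 8 genes had SDs of 0.11 to 0.28. T5R1 stressed hearts had 29.7, 38.5, 1.8 and 47.3%, against 60.3, 57.0, 35.4 and 31.3% in T5R1 control hearts (change -1.32 ± 1.18, adjusted p = 0.468). T5R1 stressed replicate 3 was below background, and without it the change was -0.22. T5R10 stressed hearts had 47.8, 229, 27.6 and 8.86%, against 55.6, 46.0, 26.4 and 16.8% in control hearts (change 0.31 ± 1.18). T10R1 stressed hearts had 7.79, 14, 38.5 and 2.66%, against 17.7, 10.8, 35.1 and 146% in control hearts (change -1.61 ± 1.18, adjusted p = 0.601). T10R1 stressed replicate 4 was also below background, and the change was -0.96 without it, -0.88 without control replicate 4 and -0.86 under normexp. T10R42 stressed hearts had 4.64, 10.0, 74.3 and 186%, against 171, 37.5, 18.3 and 8.78% in control hearts (change -0.17 ± 1.18). The arms overlapped in every condition, and no change was called.

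The Adrb3 signal moved with fat cell genes from heart to heart. Each heart was set against the mean of its own group, so that stress and slide drop out, and the mean of 13 adipocyte markers (Adipoq, Plin1, Cidec and others, all tested) was taken per heart. Adrb3 correlated with that mean over the 32 hearts at Pearson r = 0.94 (permutation p = 1e-05, the smallest that 100000 resamples can give, adjusted p = 0.0009 over 90 relations between 9 genes and 10 marker lists) and Spearman rho = 0.89 (permutation p = 1e-05). Without the 2 hearts farthest from the median r was 0.92, and on the single slides it ran from 0.87 to 0.98. The dimmer Adrb3 probe, which ranged from 5.98 to 26.0%, gave r = 0.66 (permutation p = 0.00028) and rho = 0.64 (permutation p = 0.00063), with 0.69 without the 2 farthest hearts and 0.44 to 0.84 on the slides. It changed by -0.16 to -0.01 in the 4 conditions. The summed adipocyte marker signal ran from 18960 to 26630% in T5R1 stressed hearts and from 27390 to 32620% in T5R1 control hearts. In T10R1 it ran from 21980 to 28800% in stressed hearts and from 29630 to 33650% in control hearts. The arms of this sum did not overlap in either condition, while 1 of the 13 markers (Dgat2) fell in T5R1 and 0 were called in T10R1. By the mean log2 signal, the measure used in the correlation, the T5R1 arms overlapped (stressed -1.32 to 1.42, control 1.07 to 1.74). The T10R1 arms did not (stressed -1.06 to 0.87, control 0.91 to 1.99). The part of fat cell RNA in the Adrb3 values was not tested.

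**Figure D4:**
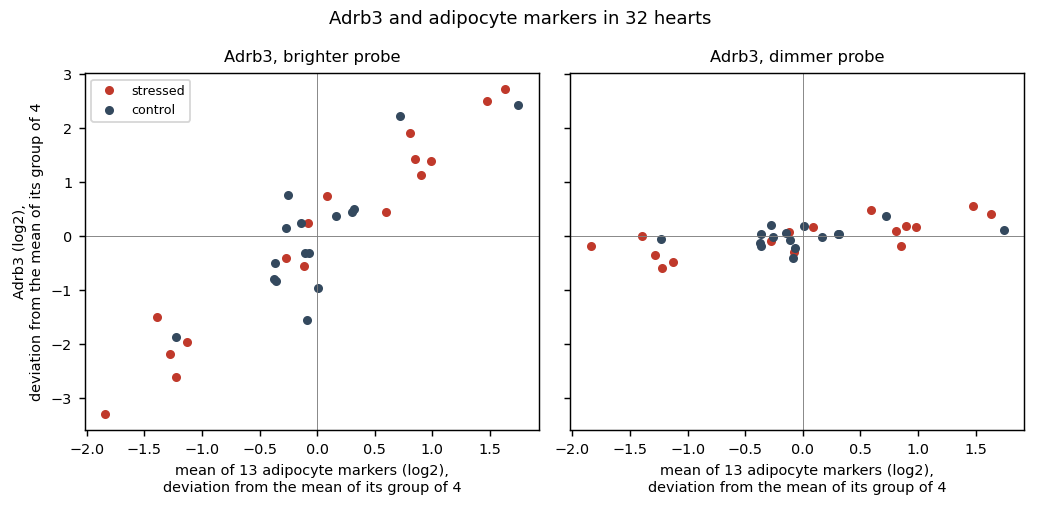
Adrb3 (y axis, log2) against the mean of 13 adipocyte markers (x axis, log2), each as deviation from the mean of its group of 4, for the brighter probe (left) and the dimmer probe (right) in stressed (red) and control (blue) hearts. The brighter probe follows the markers closely (r = 0.94) over a far wider range than the dimmer probe (r = 0.66).

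Other relations passed the same adjustment for 2 genes. Adra1b, by its brightest probe, followed the 10 ventricular muscle markers at r = 0.75 (permutation adjusted p = 0.0216) and rho = 0.74 (adjusted p = 0.0024). Without the 2 farthest hearts r was 0.62, and on the slides it ran from 0.16 to 0.95, lowest in T5R10. Adcy5, also by its brightest probe, ran against the 5 erythroid markers at r = -0.67 (permutation adjusted p = 0.0228) and rho = -0.73 (adjusted p = 0.00225). Without the 2 farthest hearts r was -0.58, and on the slides it ran from -0.95 to -0.26. The other probes of Adra1b and Adcy5, which read differently, were not set against these lists. Of those erythroid markers 3 rose in T5R1, with summed signals of 82680 to 164800% in T5R1 stressed hearts and 87690 to 110900% in T5R1 control hearts. Their mean log2 signal, the measure used in the correlation, was 2.21 to 4.53 in T5R1 stressed and 1.00 to 1.82 in T5R1 control hearts, with no overlap. The part of these markers in the Adcy5 values was not tested. The other 87 relations did not pass by either measure.

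Chrm2 fell together with its potassium channel in T5R1. Kcnj3, which encodes the GIRK1 subunit, had 37.8, 58.8, 38.2 and 58.2% in T5R1 stressed hearts, against 103, 87.5, 94.0 and 80.5% in T5R1 control hearts (change -0.95 ± 0.15, adjusted p = 0.000162). Kcnj5, for the GIRK4 subunit, fell by 0.48 ± 0.11 (adjusted p = 0.00603), a call lost with the condition fitted alone. Neither was called in the other conditions, where Kcnj3 changed by -0.24 ± 0.15 in T10R1. Kcnj3 was also among the 3 genes most like Chrm2 over the 32 arrays once the mean of each condition was removed, with r = 0.804, beside Yjefn3 (0.806) and Icam4 (0.793). By the same measure Adcy6 was most like Kcnv2 (0.856), Dglucy (0.852) and Rbfox1 (0.85), and Adra1a was most like Herpud1 (0.781), Kdm4a (0.764) and Pgrmc2 (0.757). These are descriptions, in which arrays of an arm share the stress effect.

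Markers of other cells were called in T5R1 and T10R1 as well. Of 10 atrial markers 2 fell (Kcnj3 and Tbx5), with a median of -0.82, and the summed atrial signal ran from 56360 to 125200% in T5R1 stressed hearts and from 94390 to 159400% in T5R1 control hearts. Chrm2 correlated with the mean of that list at r = 0.57 within groups (permutation p = 0.00371, adjusted p = 0.0835) and rho = 0.53 (adjusted p = 0.104), with r = 0.48 without the 2 farthest hearts and 0.24 to 0.81 on the slides. Of 9 fibroblast markers 5 rose, with summed signals of 38600 to 73050% against 28970 to 30210%, and of 8 dividing cell markers 7 rose, with 554.6 to 873.7% against 134.8 to 146.1%, in each case stressed against control. Of 10 ventricular muscle markers 1 was called lower (Tnni3, at 0.00 under quantile normalisation and called in 8 of 18 alternatives). The median change of these markers was -0.27, beside -0.12 over all genes, with summed signals of 491800 to 692300% against 673600 to 715900%. Their mean log2 signal was 7.85 to 8.25 in T5R1 stressed and 8.29 to 8.34 in T5R1 control hearts, with no overlap. In T10R1 5 of 9 fibroblast markers rose too, with 34840 to 54860% in stressed and 26040 to 27970% in control hearts, as did 1 of 8 dividing cell markers (Ccnb2) and 1 of 9 leukocyte markers (Csf1r). Within groups Adcy6 correlated with the fibroblast markers at r = -0.20 (rho = -0.14, permutation adjusted p = 0.739 and 0.814) and with the dividing cell markers at r = -0.28 (rho = -0.29, permutation adjusted p = 0.427 and 0.624). With the condition mean removed instead, which leaves the stress effect in, these were -0.71 and -0.77. Within groups Chrm2 and the fibroblast markers correlated at r = -0.32 (rho = -0.12, permutation adjusted p = 0.444 and 0.814), and at -0.71 with the condition mean removed. Grk5 and the fibroblast markers correlated within groups at r = 0.65 (rho = 0.58, permutation adjusted p = 0.108 and 0.0715). That r was 0.52 without the 2 farthest hearts and 0.48 to 0.92 on the slides. The part of a changed cell make-up, or of the share of atrium in a sample, in the lower Chrm2, Adcy6 and Adra1a signals was not tested. Nor was the part of fibroblasts in the Grk5 values.

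**Figure D5:**
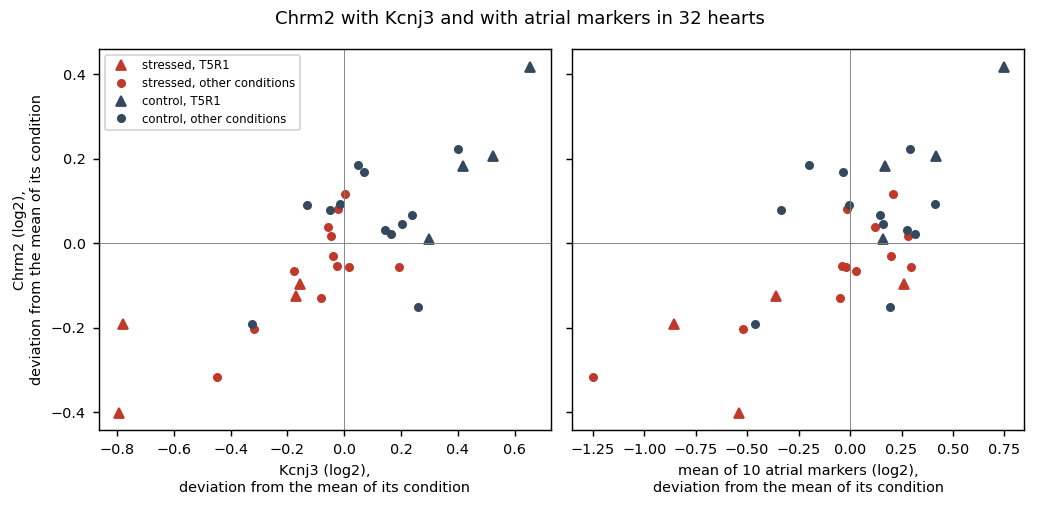
Chrm2 (y axis, log2) against Kcnj3 (left) and against the mean of 10 atrial markers (right, Kcnj3 among them), each as deviation from the mean of the 8 arrays of its condition. Triangles are T5R1 hearts and circles the other conditions, in red for stressed and blue for control. In the Kcnj3 panel the 4 red triangles lie below 0 on both axes and the 4 blue triangles above 0 on both.

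The wider pathway was read from 13 lists with 124 genes, of which 115 were tested. In T5R1 7 were called higher and 11 lower, which is 15.7% of them beside the 13.7% of all genes, with a median change of -0.10 beside -0.12. In T5R10 none was called (0.0763% of all genes), in T10R1 2 were higher (1.74% beside 1.13%), and in T10R42 1 was lower (0.87% beside 0.897%). These shares lie near those over all genes. Among the G protein subunits 1 of 17 changed, Gnb1, which encodes a beta subunit and rose by 0.35 ± 0.07 (adjusted p = 0.00132). None of the 4 other adrenergic receptors tested was called in any of the 4 conditions, nor was the 1 other muscarinic receptor tested.

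Of the 6 other adenylyl cyclases tested, with a median change of -0.09 in T5R1, 1 was called. Adcy7, a cyclase known from blood and immune cells, rose by 0.98 ± 0.13 in T5R1 (adjusted p = 2.4e-05) and 0.68 ± 0.13 in T10R1 (adjusted p = 0.0111), the second call being lost with the condition fitted alone and without T10R1 stressed replicate 1. Its median was 281% in T5R1 stressed and 149% in T5R1 control hearts, and 305% in T10R1 stressed and 189% in T10R1 control hearts. Of 9 leukocyte markers, 3 rose in T5R1 (Adgre1, Cd68 and Csf1r) and 1 fell (Cd3e), and their part in the Adcy7 values was not tested. Downstream, Prkar1a, a regulatory subunit of protein kinase A, rose by 0.59 ± 0.12 in T5R1 (adjusted p = 0.00126), and Pkig, a protein kinase A inhibitor, had a change of -0.33 ± 0.09 (adjusted p = 0.0201) that was called in 13 of 18 alternatives and missed under quantile normalisation (adjusted p = 0.089), with the authors' values, with the condition fitted alone and without stressed replicate 1 or control replicate 1.

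Of 15 phosphodiesterases, which break down cAMP or cGMP, 1 was called higher and 2 lower in T5R1. Pde1a rose by 0.56 ± 0.10 (adjusted p = 0.000708), and also in T10R1 by 0.51 ± 0.10 (adjusted p = 0.0155), a call held in 14 of 18 alternatives and lost with the condition fitted alone and without T10R1 stressed replicate 1 or 4 or control replicate 1. Pde5a fell by 0.43 ± 0.12 (adjusted p = 0.0129), a call lost with the condition fitted alone and without stressed replicate 1. Pde4d changed by -0.41 ± 0.14 (adjusted p = 0.0436), a call held in 7 of 18 alternatives and lost under quantile normalisation (adjusted p = 0.117) and without stressed replicate 1 or 2 or any 1 control array. Among 11 receptor kinases, arrestins and RGS proteins, Rgs2, which shortens Gq signals, fell by 0.65 ± 0.13 (adjusted p = 0.00189), and Arrb2, which encodes beta-arrestin 2, rose by 0.41 ± 0.12 (adjusted p = 0.02). The Arrb2 call held in 13 of 18 alternatives and was lost with the condition fitted alone and without stressed replicate 1 or 2 or control replicate 2 or 3. Plcb3, a phospholipase C below Gq, fell by 0.23 ± 0.07 (adjusted p = 0.0194), a call lost with the replicate block, with the condition fitted alone and without stressed replicate 3. Of 9 cAMP-responsive genes, Rgs16 rose by 0.92 ± 0.24 (adjusted p = 0.0111) and Ppargc1a, a coactivator of mitochondrial genes, fell by 0.50 ± 0.12 (adjusted p = 0.0072). Of 12 protein kinase A targets of the muscle cell, Tnni3, cardiac troponin I, changed by -0.32 ± 0.10 (adjusted p = 0.0328), a call also lost without stressed replicate 1 or 2 or control replicate 1, 2 or 3.

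Genes of transmitter supply gave few calls. Th, the rate-limiting enzyme of catecholamine synthesis, fell by 0.31 ± 0.09 in T5R1 (adjusted p = 0.022), with medians of 170% in T5R1 stressed and 209% in T5R1 control hearts. The Th call held in 13 of 18 alternatives and was lost with the condition fitted alone and without stressed replicate 1 or 3 or control replicate 2 or 3. Of 15 autonomic neuron and glia markers tested, 2 fell (Th and Sox10) and 1 rose (Uchl1) in T5R1, with a median of -0.35. Their mean log2 signal was -1.71 to -1.35 in T5R1 stressed and -1.21 to -1.14 in T5R1 control hearts. Adra1a correlated with that mean within groups at r = 0.55 (permutation adjusted p = 0.0972) and rho = 0.51 (adjusted p = 0.104). The part of nerve and glial cells in the Th and Adra1a values was not tested. Slc18a1, a vesicle transporter for monoamines, was at least 1.78-fold higher in T5R1 stressed hearts (adjusted p = 0.0005), above background on all 4 arrays there and on none of 4 control arrays, but it was not called under normexp background correction (adjusted p = 0.0806). That bound sets the control arrays at the lowest signal counted as above background. In T10R42 Slc22a3, a low-affinity catecholamine uptake carrier, was at least 1.21-fold lower in stressed hearts (adjusted p = 0.0264), above background on none of 4 stressed and 2 of 4 control arrays. This call held in 9 of 18 alternatives. It was lost under quantile normalisation (change -0.73, adjusted p = 0.113), under normexp (-0.18, adjusted p = 0.298), with the authors' values (-0.14, adjusted p = 0.56), with the condition fitted alone and without stressed replicate 1 or 4 or control replicate 2, 3 or 4. None of the 4 acetylcholine genes tested was called in any condition.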

How the data were processed

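Spot intensity and other values (flags of 0 or 1 for spots above background, saturated or outlying) come from deposited scanner files, in which Agilent Feature Extraction 10.7.3.1 had subtracted background, detrended the signal and set a surrogate value for spots not above background, per the file headers. The authors' value table holds log2 values, which matched the log2 mean signal before background subtraction (correlation at least 0.99951) and served only as an alternative. Any further scaling of that table is not given in the sources used here. Outlier spots were left out, and spots of a probe were averaged. Values were log2 processed signal minus the 75th percentile of the array, with no saturated probe. A probe was kept if well above background on at least 3 of 4 arrays of a group and missing on at most 4 arrays. The brightest probe stood for a gene. limma 3.58.1 in R 4.3.3 fitted 8 group means over 32 arrays (24 residual degrees of freedom), with Benjamini-Hochberg adjustment. The fit was tested on simulated data. Arrays of a group correlated at 0.9821 to 0.9943. Probes took current symbols by RefSeq accession (26413 of 55681) from a GRCm38.p6 gene table, and the 9 genes kept the array's names. Alternatives were quantile, normexp and authors' values, other filters, averaged probes, single-condition fits, blocks by replicate number or slide row, array weights, and arrays left out. All 9 genes were named in every condition, list genes where called (at most 6 per list), and for each called gene the 3 most correlated. Members, lists and these rules were chosen with earlier results of these data known. A called list gene is counted but not reported here by name.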

Additional observations from a re-analysis of the deposited data

Results flagged for a closer look

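In T5R10 control hearts, replicate 3 stood apart for Adra1b at 311%, against 414, 426 and 426% in the other 3. Without it the T5R10 change was 0.09 (adjusted p = 0.793). In T5R1 stressed hearts, replicate 3 stood apart for Adrb3 at 1.8%, against 29.7 to 47.3% in the other 3, and without it the T5R1 change was -0.22. By Dixon's test, 2 of 72 groups of 4 hearts had such a value, where chance gives about 1 in 20.

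The stress effect differed between T5R10 and T5R1 for Adra1a, by 0.99 (limma, adjusted p = 0.0188), with 4 of 4 stressed hearts above all controls in T5R10 and 4 of 4 below all controls in T5R1. It differed for Adcy6 by 0.44 (limma, adjusted p = 0.045), with 1 of 4 stressed hearts above all controls in T5R10 and 4 of 4 below all controls in T5R1.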

How the results depend on the processing

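Of 1719 repeats of single gene changes under an alternative, 1667 kept their side of the threshold, 49 lost a call, 3 gained one, and 0 changed sign with a call in either setting. The number of the 9 genes called in T5R1 was 3 and was 2 or 3 under every alternative. For the mean of the 4 stress effects, 2 genes were called, but 1 with no filter on dim probes, with the replicate block, and without the 3 arrays marked for evaluation, and 1 to 3 when a replicate was left out. For T5R10 minus T5R1, 2 were called, but 1 with the authors' values, no filter, normexp, quantile normalisation, the replicate block, and without the 3 marked arrays, and 0 to 2 when a replicate was left out. For T10R42 minus T10R1, 0 were called, but 1 with array weights (Adra1a, 0.74, adjusted p = 0.0311), and 0 to 1 when a replicate was left out. The Adcy6 difference between T5R10 and T5R1 lost its call without T5R1 stressed replicate 1 or 4, T5R1 control replicate 1, 2 or 4, T5R10 stressed replicate 1 or 2, or T5R10 control replicate 1, 2 or 4 (over all left-out arrays 0.38 to 0.49, adjusted p from 0.0283 to 0.106). The causes were not tested. Same-numbered stressed and control hearts deviated together in 5 of 16 pairs (correlation over 0.1, range -0.27 to 0.21). Differently numbered pairs, which outnumber the same-numbered ones, ranged from -0.22 to 0.22. Those over 0.1 were 0.131, 0.146 and 0.151 in T5R1, 0.168 and 0.194 in T5R10, and 0.221 in T10R42. Same-numbered hearts also lay in the same slide row, so these values do not settle whether the numbers pair the samples. With the replicate block 3 genes were called in T5R1. Calls over the pathway lists in T5R1, 7 higher and 11 lower, were 8 and 7 under quantile normalisation, 6 and 3 with the condition fitted alone, and 10 and 18 with array weights. Counts over all genes ranged, over alternatives and left-out arrays, from 2177 (without T5R1 stressed replicate 1) to 5767 in T5R1 (3778 as reported), 0 to 1088 (without the 3 marked arrays) in T5R10 (21), 4 to 1111 in T10R1 (312), 0 to 1942 in T10R42 (247), 311 to 1062 for T5R10 minus T5R1 (686), 305 to 3844 for T10R42 minus T10R1 (1135), and 11 to 1979 for T10R1 minus T5R1 (163). Arrays, at 4 per group, limit what could be called, as does background for Adrb3 on 2 arrays.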
